A study of Mus musculus with 8 samples.

Results

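The Ptpn genes encode intracellular protein tyrosine phosphatases, and 10 of them were followed in 2 clones of CD4+ T cells: Ptpn1, Ptpn2, Ptpn4, Ptpn6, Ptpn7, Ptpn11, Ptpn12, Ptpn13, Ptpn18 and Ptpn22. They were chosen by gene name from the 39056 rows of the deposited count table, at a stage when the difference between the clones in these same libraries was already known. No cut-off on a value was given with the choice. Each symbol matched 1 row, and all 10 were among the 12619 genes that passed the low-count filter and were tested. Because the choice was made with the contrast known, the levels and fold changes of these 10 genes are given as a description, with no p-value and no call.

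Protein tyrosine phosphatases remove the phosphate groups that kinases add after a T cell receptor (TCR) or cytokine receptor is engaged. In T cells the PEST phosphatases, of which Ptpn22 is the best known, act on kinases next to the receptor, and SHP-1 and SHP-2, the products of Ptpn6 and Ptpn11, are recruited to the phosphorylated tails of inhibitory receptors. The products of Ptpn1 and Ptpn2 act on Janus kinases and STAT factors, and that of Ptpn7 on MAP kinases. All share a catalytic loop with a cysteine that takes up the phosphate and an arginine that holds it.

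The samples were CD4+ T cells sorted from the combined lymph nodes and spleen of mice on a C57BL/6J background, which had received bone marrow transduced with a retrovirus. SAS cells carried the SAS TCR alpha chain (4 libraries, replicates 1, 2, 3 and 6) and ANT cells the ANT TCR alpha chain (4 libraries, replicates 1, 3, 4 and 5). Both clones had the genotype CD4-Cre TCRβtg Tcra-/-, that is, a Cre recombinase driven by Cd4 elements, a transgenic TCR beta chain and no endogenous TCR alpha gene, so every cell relied on the retroviral alpha chain. The sources used here give neither the ages of the mice nor the number of mice behind each library, and p-values therefore measure the spread between these libraries, part of which may be technical. The series title speaks of self-reactive clones with a follicular helper-like phenotype, and comparing SAS with ANT addresses how expression differs between the clones.

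Library totals were 27600959 to 31810799 counts. The second principal component, with 10.6% of the variance, set ANT replicates 1 and 3 (24.97 and 26.64) apart from ANT replicates 4 and 5 (−25.1 and −31.33), and likewise SAS replicate 1 (23.55) from SAS replicate 2 (−24.98). SAS replicate 2 was also the highest library for 41.7% of the 6879 genes with a mean between 0.05 and 3 CPM (counts per 1000000 counts of the scaled library size). The 6 markers of CD4+ T cells in the fixed list, Cd4, Cd3d, Cd3e, Cd3g, Cd2 and Trbc2, summed to 5237 to 7628 CPM in SAS and 5633 to 8153 CPM in ANT, with a median log2 fold change of −0.07. Summed markers of B cells (1.38 to 3.19 CPM in SAS, 1.28 to 2.90 CPM in ANT), myeloid cells (1.76 to 5.33 CPM in SAS, 0.625 to 1.17 CPM in ANT), NK cells (0.621 to 1.05 CPM in SAS, 0 to 0.103 CPM in ANT) and erythroid cells (1.22 to 5.85 CPM in SAS, 0.828 to 12.9 CPM in ANT) were low, and the NK cell genes Ncr1 and Klre1 were at 0 in every library. Of these 18 genes, Itgam and Klrb1c were called higher in SAS. The CD8 markers Cd8a and Cd8b1 summed to 1.99 to 4.49 CPM in SAS and 14.1 to 66.8 CPM in ANT, with Cd8b1 called lower in SAS and Cd8a not called. The part that these markers play in the results below was not tested.

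The catalytic loop is shown first because it is what the 10 genes have in common. The 24 coding bases of the loop were read from GENCODE M21 transcripts (build GRCm38, mm10), 5′ to 3′, from the transcript with the longest coding sequence of each gene. Capitals mark the codons of the catalytic cysteine, of the sixth residue of the loop and of the arginine. Ptpn2 is named only.
Ptpn22: cacTGCagtgccggcTGCggaAGG
Ptpn12: catTGCagtgcaggcTGTggaCGA
Ptpn18: cacTGCagtgctggcTGCggaCGA
Ptpn6: catTGCagcgctggcATCggcCGC
Ptpn11: cacTGCagcgctgggATTggcCGG
Ptpn1: cacTGCagcgccggcATCgggAGG
Ptpn7: cacTGCagtgcagggATCggcCGG
Ptpn4: catTGCagtgctggaATTggaAGG
Ptpn13: cacTGCagcgctggcATTggaCGC
The sixth codon encoded cysteine in 3 genes, the PEST group of Ptpn12, Ptpn18 and Ptpn22, and isoleucine in the other 6. Pairs of genes shared 15 to 21 of the 24 bases. The 5 pairs that shared 21 were Ptpn12 and Ptpn18, Ptpn18 and Ptpn22, Ptpn7 and Ptpn11, Ptpn11 and Ptpn13, and Ptpn6 and Ptpn13, while Ptpn6 and Ptpn11 shared 20. In 7 of the 9 genes an intron splits the loop, so that the bases span a longer stretch of the genome. In mm10 the loops lie at the following places: Ptpn22 at chr3:103876730-103877320 (plus strand), Ptpn12 at chr5:21005400-21009449 (minus strand), Ptpn18 at chr1:34470335-34471508 (plus strand), Ptpn6 at chr6:124722063-124724964 (minus strand), Ptpn11 at chr5:121143614-121144537 (minus strand), Ptpn1 at chr2:167974207-167974230 (plus strand), Ptpn7 at chr1:135139271-135141958 (plus strand), Ptpn4 at chr1:119667634-119675556 (minus strand), Ptpn13 at chr5:103593642-103593665 (plus strand).

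The clones were separated by 6 Ptpn genes. The 4 SAS libraries lay above the 4 ANT libraries for Ptpn7, Ptpn11, Ptpn12, Ptpn13 and Ptpn22 and below them for Ptpn18, whereas Ptpn1, Ptpn2, Ptpn4 and Ptpn6 overlapped. Among all 12619 genes tested, 38.1% had clones that did not overlap, and 37.4% were called at an adjusted p under 0.05 in edgeR's quasi-likelihood test, 19.8% higher and 17.7% lower in SAS. Nothing is read from the members' count against these shares, since the genes were proposed with the contrast known. The median log2 fold change (SAS minus ANT) was 0.50 over the 10 genes and −0.00318 over all genes tested. For the same reason, no shift of the 10 genes as a set is read from these medians. Of all calls, 52.8% were genes higher in SAS under TMM scaling, as were 64.8% under scaling by library totals, which moved the median of all genes to 0.09. Libraries are of bulk RNA, in which fewer cells of a type and less RNA per cell cannot be told apart.

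**Figure D1:**
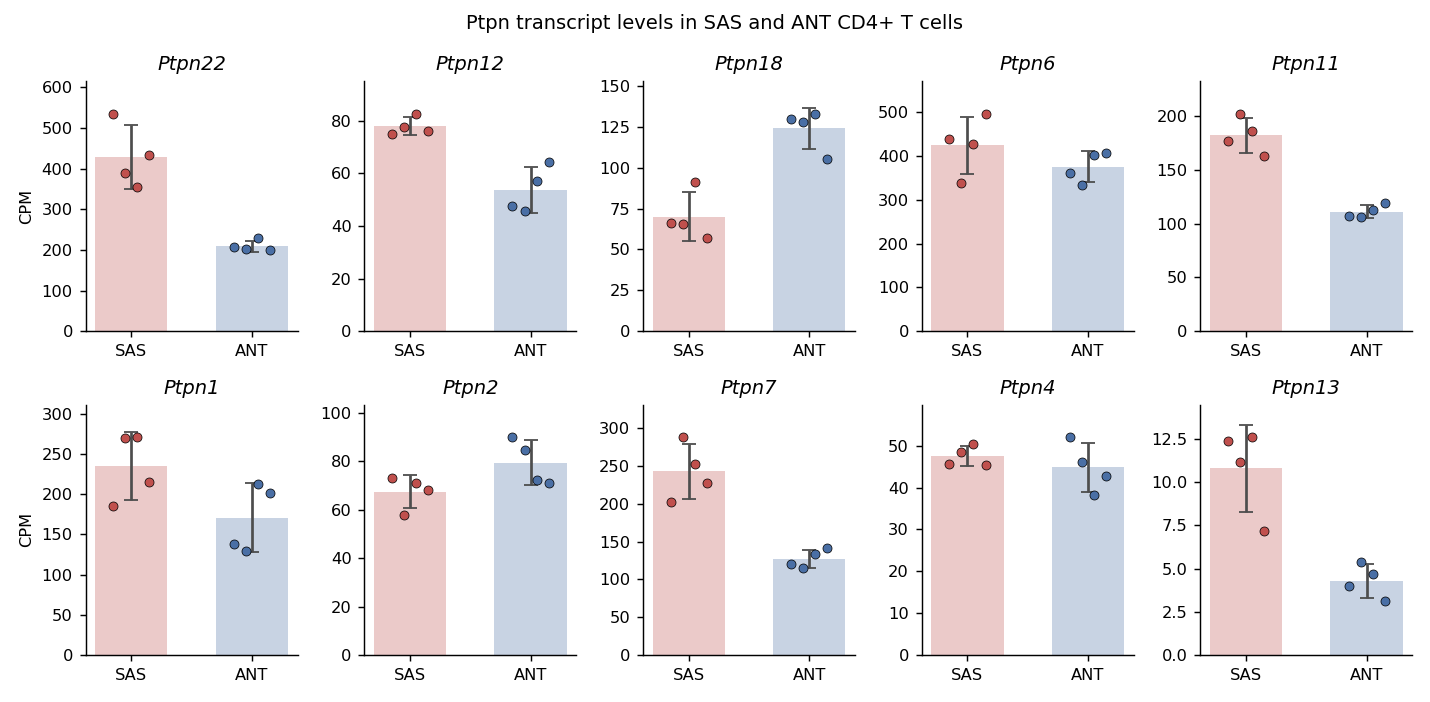
Transcript level of each Ptpn gene, in CPM of the TMM-scaled library size, with 1 point per library, bars for the mean and error bars for the SD of 4 libraries. Points stand in the order of replicates 1, 2, 3 and 6 for SAS and 1, 3, 4 and 5 for ANT, and the clones do not overlap for Ptpn22, Ptpn12, Ptpn18, Ptpn11, Ptpn7 and Ptpn13.

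The PEST group held the member with the widest gap in CPM between the clones as well as the only one whose SAS libraries all lay below ANT. Library values are given here in the order of replicates 1, 2, 3 and 6 for SAS and 1, 3, 4 and 5 for ANT. Ptpn22 (ENSMUSG00000027843.13, chromosome 3, 103859795 to 103912247, plus strand) encodes the phosphatase that works with the kinase Csk to dephosphorylate Lck and Zap70. It was at 535, 390, 354 and 433 CPM in SAS and at 207, 201, 229 and 200 CPM in ANT. Every SAS library lay above every ANT library, by at least 125 CPM, and SAS replicate 1 was the highest of all. Its means were 428 ± 78.2 CPM in SAS and 209 ± 13.4 CPM in ANT (SD, n = 4 each), a log2 fold change of 1.03 (SE 0.13), or 2.04-fold.

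Ptpn12 (ENSMUSG00000028771.13, chromosome 5, 20986645 to 21055911, minus strand), whose product acts on cytoskeletal adaptors and the kinase Pyk2, followed the same direction with a smaller difference. It was at 74.8, 77.7, 82.7 and 76.2 CPM in SAS and at 47.5, 45.8, 57.0 and 64.5 CPM in ANT. The SAS libraries lay within a narrow range, and the ANT libraries were spread, with replicates 4 and 5 nearest to SAS. The log2 fold change was 0.54 (SE 0.12), 0.36 without ANT replicates 1 and 3 and 0.72 without ANT replicates 4 and 5.

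Ptpn18 (ENSMUSG00000026126.15, chromosome 1, 34459762 to 34475733, plus strand), a PEST phosphatase of blood cells that also binds Csk, went the other way. It was at 66.2, 65.5, 91.4 and 57.2 CPM in SAS and at 130, 128, 133 and 105 CPM in ANT. The clones did not overlap, and SAS replicate 3 and ANT replicate 5 came nearest to each other, 14.0 CPM apart. Its means were 70.1 ± 14.8 CPM in SAS and 124 ± 12.6 CPM in ANT, a log2 fold change of −0.82 (SE 0.15), or 1.77-fold lower in SAS. The exons of Ptpn18 share 492 bases with Gm28417, a transcript of the opposite strand. The strand setting of the counting was not given in the sources used here, so reads over that stretch cannot be assigned to one gene with certainty.

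The balance within the PEST group therefore differed between the clones. Ratios were taken within each library from levels per kilobase (kb) of exon, which leaves them free of any scaling between libraries. Ptpn22 over Ptpn18 was 7.75, 5.70, 3.71 and 7.25 in SAS and 1.53, 1.51, 1.65 and 1.82 in ANT, with no overlap. Ptpn12 over Ptpn18 averaged 2.11 ± 0.329 in SAS and 0.816 ± 0.218 in ANT, also without overlap. For both ratios over Ptpn18 the lack of overlap follows from the directions of the genes themselves and is no separate result. Ptpn22 over Ptpn12 averaged 2.86 ± 0.632 in SAS and 2.05 ± 0.309 in ANT, and these ratios overlapped. The group's share of the summed level per kb of the 10 genes was 25.2% ± 2.41 in SAS and 22.1% ± 1.09 in ANT.

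SHP-1 and SHP-2 differed from each other in how they compared between the clones. Ptpn6 (ENSMUSG00000004266.15, chromosome 6, 124720707 to 124738714, minus strand) encodes SHP-1, the phosphatase of blood cells that docks to inhibitory receptors and opposes TCR signals. It was at 438, 338, 428 and 497 CPM in SAS and at 362, 333, 403 and 408 CPM in ANT. The clones overlapped, with SAS replicate 2 among the lowest libraries, and the log2 fold change was 0.18 (SE 0.13). Its exons share 195 bases with the antisense gene Gm20531.

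Ptpn11 (ENSMUSG00000043733.14, chromosome 5, 121130533 to 121191397, minus strand) encodes SHP-2, which is expressed in most tissues, passes signals to Ras and is also recruited by PD-1. It was at 177, 202, 186 and 163 CPM in SAS and at 107, 106, 113 and 119 CPM in ANT. The lowest SAS library was 43.6 CPM above the highest ANT library, and ANT had the smallest coefficient of variation of the 10 genes (5.39%). Its means were 182 ± 16.2 CPM in SAS and 111 ± 6.00 CPM in ANT, a log2 fold change of 0.71 (SE 0.10), or 1.63-fold. Within a library, Ptpn11 over Ptpn6 per kb was 0.151, 0.223, 0.162 and 0.123 in SAS and 0.111, 0.119, 0.105 and 0.109 in ANT. SHP-1 transcripts thus remained the more abundant in every library, and the ratios did not overlap, though SAS replicate 6 and ANT replicate 3 lay close together. Since Ptpn11 alone separated the clones, this ratio is no separate result.

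Ptpn1 and Ptpn2, a closely related pair, overlapped between the clones and leaned in opposite directions. Ptpn1 (ENSMUSG00000027540.13, chromosome 2, 167932057 to 167979385, plus strand), whose product acts on Jak2 and on the insulin receptor, was at 185, 270, 271 and 215 CPM in SAS and at 138, 130, 213 and 202 CPM in ANT. ANT replicates 4 and 5 lay within the SAS range, and ANT replicates 1 and 3 below it. The log2 fold change was 0.46 (SE 0.19), 0.18 without ANT replicates 1 and 3 and 0.79 without ANT replicates 4 and 5. Of the 10 genes it had the widest spread in ANT, with a coefficient of variation of 25.0%. Over the 8340 genes with a mean of at least 10 CPM the median was 14.3% in ANT and 10.7% in SAS.

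Ptpn2 (ENSMUSG00000024539.17, chromosome 18, 67665511 to 67724595, minus strand) encodes TC-PTP, which restrains Jak1, Jak3 and STAT factors and limits cytokine and TCR responses. It was at 73.2, 57.7, 70.9 and 68.1 CPM in SAS and at 89.9, 84.7, 72.1 and 71.0 CPM in ANT. ANT replicates 1 and 3 stood above all SAS libraries, while replicates 4 and 5 lay within the SAS range. The log2 fold change was −0.23 (SE 0.12), and −0.39 without ANT replicates 4 and 5. Ptpn1 over Ptpn2 per kb was 1.43, 2.64, 2.15 and 1.78 in SAS and 0.865, 0.870, 1.67 and 1.61 in ANT.

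Ptpn7 (ENSMUSG00000031506.11, chromosome 1, 135132700 to 135145317, plus strand), a phosphatase of blood cells that binds and inactivates MAP kinases, was higher in SAS. It was at 203, 288, 253 and 228 CPM in SAS and at 120, 115, 133 and 141 CPM in ANT. Every SAS library lay above every ANT library by at least 61.6 CPM, and SAS replicate 2 was the highest. Its means were 243 ± 36.2 CPM in SAS and 127 ± 11.8 CPM in ANT, a log2 fold change of 0.93 (SE 0.13), or 1.91-fold.

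Ptpn4 and Ptpn13 encode large phosphatases with FERM and PDZ domains, which anchor them to membrane proteins. Ptpn4 (ENSMUSG00000026384.13, chromosome 1, 119652467 to 119837613, minus strand), whose product can dephosphorylate the TCR zeta chain, was at 45.7, 48.6, 50.4 and 45.5 CPM in SAS and at 52.0, 46.1, 38.2 and 42.7 CPM in ANT. The SAS libraries lay inside the ANT range, and the log2 fold change of 0.09 (SE 0.11) turned to −0.07 without ANT replicates 4 and 5. Ptpn13 (ENSMUSG00000034573.14, chromosome 5, 103425192 to 103598303, plus strand), whose human counterpart binds the death receptor Fas, was scarce. It was at 12.4, 11.2, 12.6 and 7.20 CPM in SAS and at 4.0, 5.4, 4.69 and 3.10 CPM in ANT, resting on 1315 counts in the SAS libraries and 483 in the ANT libraries. The clones did not overlap, and the log2 fold change of 1.34 (SE 0.23), or 2.52-fold, was the largest of the 10 genes. Its exons share 70 bases with the antisense gene Gm42620.

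Levels per kb of exon allow the genes to be ranked. The length used merges the exons of all annotated transcripts of a gene, whichever are expressed. Ranks, shares and the size of ratios between genes depend on that choice. Ptpn6 was first in both clones, at 152 ± 23.3 CPM per kb in SAS and 134 ± 12.6 CPM per kb in ANT, and held 39.7% ± 4.50 of the summed level of the 10 genes in SAS and 45.3% ± 1.04 in ANT. Ptpn22 was second in SAS, at 63.2 ± 11.5 CPM per kb, and stood at 30.9 ± 1.98 CPM per kb in ANT, where Ptpn1 had a similar mean (30.8 ± 7.70). By share of the summed level, Ptpn22 lay above Ptpn1 in ANT replicates 1 and 3 (10.7% and 11%, against 8.7% and 8.74%). In ANT replicates 4 and 5 it lay below Ptpn1 (10.7% and 9.47%, against 12.2% and 11.7%). In SAS, Ptpn1 (42.5 ± 7.62 CPM per kb) and Ptpn7 (39.8 ± 5.94) came next, with overlapping spreads. Within every SAS library Ptpn1 was the higher, though by little in replicate 1 (shares of 8.68% and 8.62%). They were followed by Ptpn11 (24.3 ± 2.16), Ptpn12 (22.2 ± 0.982) and Ptpn2 (21.6 ± 2.19), again with overlapping spreads, and by Ptpn18 (10.8 ± 2.28), Ptpn4 (4.2 ± 0.207) and Ptpn13 (0.896 ± 0.207). Within every SAS library Ptpn11 lay above Ptpn12, though hardly in replicate 6 (shares of 5.49% and 5.48%), where Ptpn2 was at 5.5%. By mean in ANT, Ptpn2 (25.4 ± 2.99) came after Ptpn22 and Ptpn1, and Ptpn7 (20.9 ± 1.94) and Ptpn18 (19.1 ± 1.93) followed within their spread. Ptpn12 (15.3 ± 2.48) and Ptpn11 (14.9 ± 0.801) preceded Ptpn4 (3.95 ± 0.513) and Ptpn13 (0.355 ± 0.0811). In ANT replicates 1 and 3, however, Ptpn2 (shares of 10.1% and 10%) lay above Ptpn1 (8.7% and 8.74%). The summed level of the 10 genes was 381 ± 16.8 CPM per kb in SAS and 296 ± 22.1 CPM per kb in ANT.

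**Figure D2:**
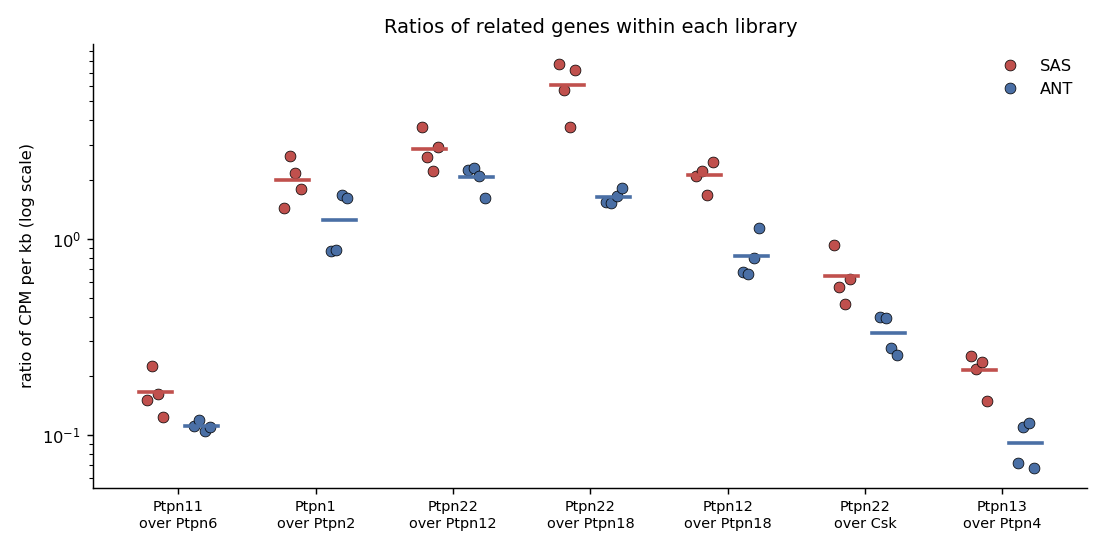
Ratios of related genes within each library, from CPM per kb of exon, on a log axis, with 1 point per library and a bar for the mean of 4. SAS points lie above all ANT points for Ptpn11 over Ptpn6, Ptpn22 over Ptpn18, Ptpn12 over Ptpn18, Ptpn22 over Csk and Ptpn13 over Ptpn4, and overlap ANT for Ptpn1 over Ptpn2 and Ptpn22 over Ptpn12. For the ratios over Ptpn18 this follows from the directions of the genes themselves. In the other ratios without overlap, the first gene also separates the clones on its own.

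Within ANT, several of the 10 genes put replicates 4 and 5 on one side of replicates 1 and 3. The second principal component of all genes tested did so too. How many of all genes do so was not counted, and no trait of the members is read from it. The mean of replicates 4 and 5 over that of replicates 1 and 3 was 1.55 for Ptpn1, 1.30 for Ptpn12, 1.17 for Ptpn6, 1.16 for Ptpn7 and 1.09 for Ptpn11, and was 0.819 for Ptpn2 and 0.825 for Ptpn4. Ptpn13, Ptpn18 and Ptpn22 did not separate these libraries. For the 8340 genes with a mean of at least 10 CPM the median of this ratio was 1.0, with the 10th percentile at 0.708 and the 90th at 1.57, so the range of the members lay inside that of most genes. The 6 genes that separated the clones kept their direction without replicates 4 and 5 and without replicates 1 and 3. Since their clones do not overlap, leaving out ANT libraries could hardly turn it, and nothing is read from that.

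Promoters of the members were searched as a description, and no cause is read from them. The 3 shown are those of Ptpn22, Ptpn11 and Ptpn18. Ptpn22 is the abundant gene with the largest difference, Ptpn11 held the most motif matches, and Ptpn18 was the gene lower in SAS. The windows run from 250 bases before to 50 bases after a transcription start and come from RefSeq (GRCm38.p6), which had 10 windows for 8 of the genes (all but Ptpn2 and Ptpn12), with 2 each for Ptpn7 and Ptpn22. They are printed 5′ to 3′ on the strand of the gene, and capitals mark motif matches on either strand. The second start of Ptpn22 is at chr3:103860027-103860326, that of Ptpn11 at chr5:121191348-121191647 and that of Ptpn18 at chr1:34459496-34459795.
Ptpn22: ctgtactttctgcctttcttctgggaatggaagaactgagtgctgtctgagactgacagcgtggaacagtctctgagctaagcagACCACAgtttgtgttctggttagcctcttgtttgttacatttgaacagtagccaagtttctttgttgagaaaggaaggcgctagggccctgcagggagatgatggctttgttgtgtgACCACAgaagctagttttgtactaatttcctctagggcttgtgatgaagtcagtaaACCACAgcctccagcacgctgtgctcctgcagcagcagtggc
Ptpn11: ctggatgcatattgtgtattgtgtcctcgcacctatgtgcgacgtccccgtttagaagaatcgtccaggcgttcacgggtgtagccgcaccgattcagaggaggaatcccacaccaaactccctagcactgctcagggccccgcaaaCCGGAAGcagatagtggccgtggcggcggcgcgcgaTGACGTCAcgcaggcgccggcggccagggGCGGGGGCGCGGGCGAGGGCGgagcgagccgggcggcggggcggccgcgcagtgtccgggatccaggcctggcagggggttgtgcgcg
Ptpn18: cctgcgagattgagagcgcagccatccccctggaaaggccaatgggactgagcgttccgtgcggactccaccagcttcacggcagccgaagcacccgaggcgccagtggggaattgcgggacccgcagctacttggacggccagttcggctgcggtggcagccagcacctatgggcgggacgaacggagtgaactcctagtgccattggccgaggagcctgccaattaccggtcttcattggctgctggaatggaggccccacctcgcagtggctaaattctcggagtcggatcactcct

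The motifs searched were TGANTCA (AP-1), TGACGTCA (CRE), AAAGGTCA (NBRE, bound by Nr4a factors), GCGNGGGCG (EGR), CCGGAAG (ETS) and TGTGGT (Runx). Of 32851 promoter windows of this length, 7.81% held AP-1, 1.79% CRE, 1.51% NBRE, 5.55% EGR, 8.86% ETS and 16.8% Runx. The Ptpn22 window held 3 Runx matches on the opposite strand, starting 165 and 48 bases before the start and at base 9 after it. The Ptpn11 window held an ETS match 103 bases before the start, a CRE match 67 bases before it and 3 EGR matches that overlap each other, 38, 32 and 26 bases before it. Ptpn13 held 1 EGR match, Ptpn1 held 1 EGR and 1 ETS match, and no other window of the 8 genes held any of these motifs. Matches are of letters alone. The windows also differed in CpG dinucleotides, of which the median promoter had 7. Ptpn22 had 6 and 3 in its 2 windows, Ptpn7 had 10 and 7, and Ptpn6 had 8, while Ptpn18 had 22, Ptpn13 had 33, Ptpn11 had 37, Ptpn4 had 44 and Ptpn1 had 47. The genes with 22 or more CpG dinucleotides thus included Ptpn11 and Ptpn13, which were higher in SAS, Ptpn18, which was lower, and Ptpn1 and Ptpn4, which overlapped.

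Among the other non-receptor phosphatases, 2 of 6 genes tested rose in SAS and 4 did not pass the test (median log2 fold change 0.91). Over all genes tested 37.4% were called. This list and those below were chosen with earlier results of these data known, so nothing is read from their counts against that share. Ptpn3, a FERM and PDZ phosphatase like Ptpn4, was at 6.58, 8.66, 7.25 and 7.10 CPM in SAS and at 0.759, 0.845, 0.937 and 1.62 CPM in ANT. The clones did not overlap, with a log2 fold change of 2.82 (SE 0.26, edgeR adjusted p 1.66e-05). Ptpn5, best known from brain, rose as well with a single high library, SAS replicate 2, at 5.01 CPM, where SAS replicates 1, 3 and 6 had 0.426 to 0.932 CPM, and ANT had 0 to 0.172 CPM. Its log2 fold change of 4.08 (edgeR adjusted p 0.00908) was 2.60 without that library (adjusted p 0.0107), and the call was lost without ANT replicates 1 and 3 (0.0784) or 4 and 5 (0.0901). Ptpn23 and Ptpn9, the most abundant of those not called, had log2 fold changes of 0.54 and 0.36 (adjusted p 0.0751 and 0.0735). They were called without ANT replicate 5 (Ptpn23, adjusted p 0.016) or without SAS replicate 6 (Ptpn9, 0.0368). Without ANT replicates 1 and 3 their values were 0.19 and 0.25 (adjusted p 0.357 and 0.257). Ptpn20 was not tested.

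**Figure D3:**
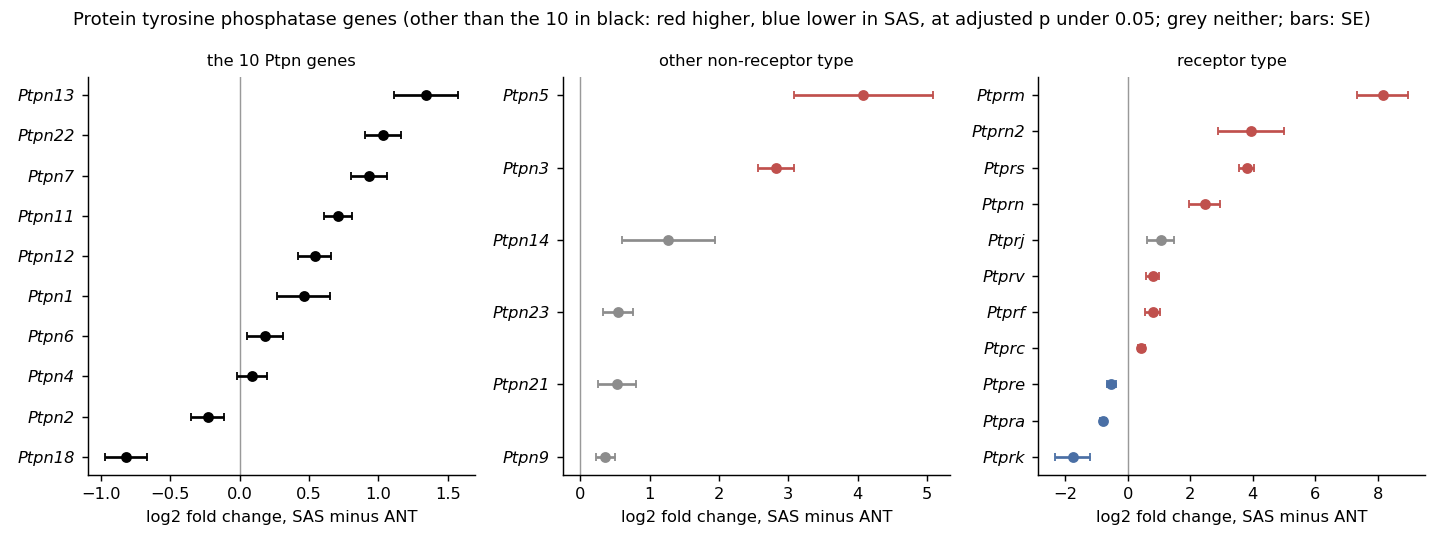
Log2 fold change (SAS minus ANT) with its SE for the 10 Ptpn genes (left), 6 other non-receptor phosphatases (middle) and 11 receptor-type phosphatases (right), each on its own axis. The 10 Ptpn genes are drawn in black, with Ptpn22 at 1.03 and Ptpn18 at −0.82. In the other panels red genes were called higher and blue genes lower in SAS at an edgeR adjusted p under 0.05, and the fitted value of Ptprm is uncertain because it had no count in ANT.

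Receptor-type phosphatases, which span the membrane, also split in direction. Of 21 genes, 11 were tested, and 7 rose in SAS, 3 fell and 1 did not pass the test (median log2 fold change 0.80, the same with Ptprm at its bound). The share called over all genes tested was 37.4%. Ptprc, which encodes CD45 and keeps Lck active, averaged 4429 ± 288 CPM in SAS libraries and 3297 ± 352 CPM in ANT libraries, a log2 fold change of 0.43 (edgeR adjusted p 0.0183). Leaving out ANT replicate 4, or ANT replicates 4 and 5, ended that call (adjusted p 0.0645 and 0.0856). Ptprs, known from neurons and plasmacytoid dendritic cells, averaged 104 ± 29.8 CPM in SAS libraries and 7.47 ± 1.57 CPM in ANT libraries, which is 3.80 on the log2 scale (SE 0.23, adjusted p 1.37e-06). Ptprm had 146 counts in SAS and none in ANT, at least 45.3-fold higher against a floor of 3 counts over the 4 ANT libraries. Ptprn and Ptprv had log2 fold changes of 2.46 and 0.80 (adjusted p 0.00313 and 0.0125). SAS replicate 2 was the highest library of both, and without it the values were 1.88 and 0.57 (adjusted p 0.00437 and 0.0211). The call of Ptprv ended without ANT replicates 4 and 5 (0.0523) and under the replicate block (0.127). Ptpra, which activates Src kinases, fell to 78.6 ± 4.53 CPM in SAS, against 136 ± 13.1 CPM in ANT, which is −0.79 on the log2 scale (SE 0.10, adjusted p 0.000162). Ptpre, its closest relative, fell too (−0.53, adjusted p 0.013), as did the scarce Ptprk (−1.77, adjusted p 0.0277), whose call was lost without ANT replicate 1 (0.0614) or SAS replicates 1, 3 or 6 (0.0699, 0.0791 and 0.0659), or without ANT replicates 1 and 3 together (0.134), and whose value was −2.76 without SAS replicate 2. Ptprj did not pass the test (1.05, adjusted p 0.0863). It was called without ANT replicate 4 (0.0427), but was at 0.50 without ANT replicates 1 and 3 (0.35).

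Most of the tested receptors and adaptors that dock SHP-1 or SHP-2 were called, where 37.4% of all genes tested were. The list was chosen with earlier results of these data known. Of 18 genes, 14 were tested, 8 rose in SAS, 4 fell and 2 did not pass the test (median log2 fold change 1.02). Pdcd1, the gene of the SHP-2 docking receptor PD-1, was at 173, 120, 84.1 and 141 CPM in SAS and at 1.86, 1.98, 0.937 and 0.965 CPM in ANT. Its log2 fold change was 6.49 (SE 0.32, edgeR adjusted p 3.43e-07), against 0.71 for Ptpn11 and 0.18 for Ptpn6. Cd5, an inhibitory receptor of T cells, averaged 678 ± 44.8 CPM in SAS libraries and 213 ± 28.5 CPM in ANT libraries (log2 fold change 1.67, adjusted p 3.72e-06). Slamf6, a receptor of the SLAM family, averaged 435 ± 62.6 CPM in SAS libraries and 195 ± 44.4 CPM in ANT libraries (log2 fold change 1.16, adjusted p 0.000458). The scarce Lilrb4a rose on 173 counts in SAS and 5 in ANT (adjusted p 2.19e-05). Sit1, an adaptor that binds SHP-2, fell to 12.9 ± 1.32 CPM in SAS, against 77.8 ± 6.77 CPM in ANT (log2 fold change −2.59, adjusted p 1.55e-07). The collagen receptor Lair1 fell to 2.26 ± 0.428 CPM in SAS, against 18.7 ± 1.80 CPM in ANT (−3.05, adjusted p 8.01e-07). Themis, a partner of SHP-1 in thymocytes, and the docking adaptor Gab3 fell by 1.13 and 0.96 on the log2 scale (adjusted p 0.000801 and 0.00072). Pecam1 (log2 fold change −0.12, adjusted p 0.481) and Cd22 (2.19, adjusted p 0.071) did not pass the test. Cd22 was called when ANT replicate 5 was left out (3.35 on the log2 scale, adjusted p 0.021) and Pecam1 when ANT replicates 4 and 5 were (−0.33, 0.0236). Without ANT replicates 1 and 3, Cd22 was at 1.29 (adjusted p 0.244) and Pecam1 at 0.08 (0.57).

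**Figure D4:**
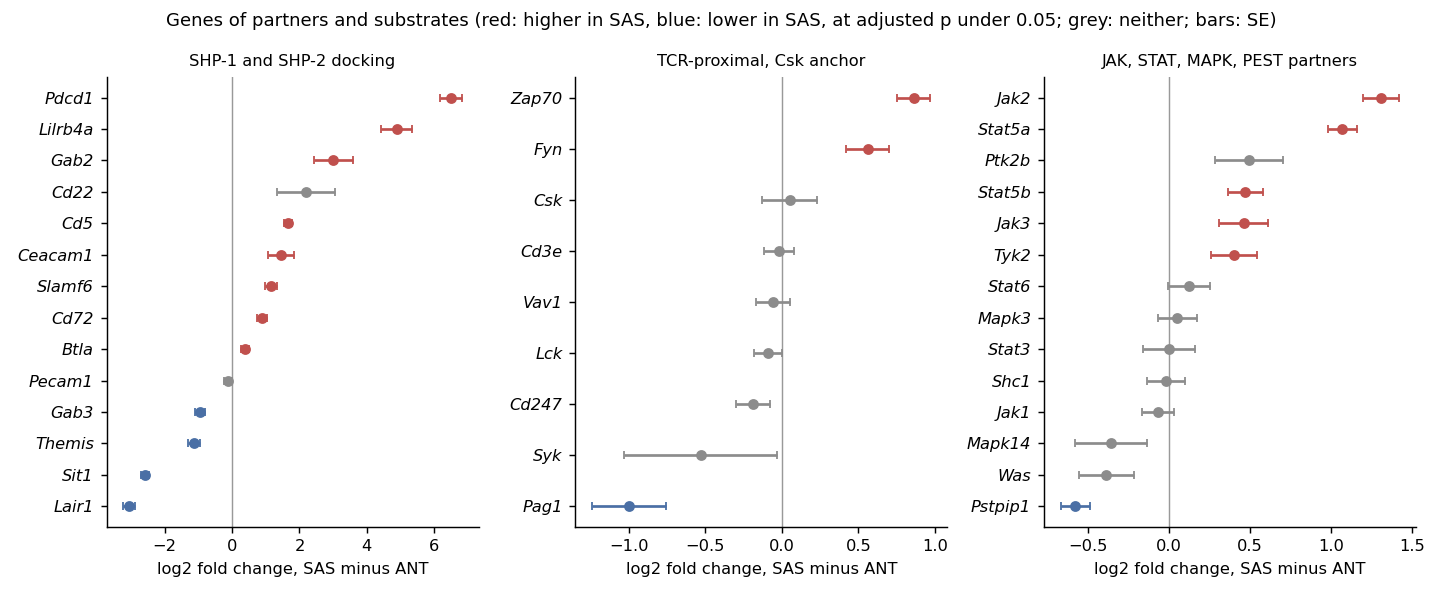
Log2 fold change (SAS minus ANT) with its SE for genes of SHP-1 and SHP-2 docking proteins (left), TCR-proximal proteins and the Csk anchor (middle), and Janus kinases, STAT factors, MAP kinases and PEST partners (right). Red genes were called higher and blue genes lower in SAS at an edgeR adjusted p under 0.05, with Pdcd1 at 6.49 and Lair1 at −3.05 as the extremes of the left panel.

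Of 9 genes for TCR-proximal proteins, 2 rose in SAS, 1 fell and 6 did not pass the test (median log2 fold change −0.06). This is near the share called over all genes tested, 37.4%. Lck, the kinase that starts TCR signalling and a substrate of Ptpn22, averaged 957 ± 53.0 CPM in SAS libraries and 1016 ± 25.2 CPM in ANT libraries, a log2 fold change of −0.09 (SE 0.09, edgeR adjusted p 0.507), and Cd3e was at −0.02 (adjusted p 0.878). Scaling by library totals gave both a positive sign. Zap70 rose to 429 ± 14.1 CPM in SAS, against 236 ± 28.6 CPM in ANT (log2 fold change 0.86, adjusted p 0.000134), and Fyn rose by 0.56 (adjusted p 0.00956). Csk, the kinase that restrains Lck and pairs with Ptpn22, was at 319, 380, 422 and 385 CPM in SAS and at 286, 282, 458 and 431 CPM in ANT. The clones overlapped, ANT replicates 4 and 5 were the highest libraries, and the log2 fold change was 0.05 (SE 0.18, adjusted p 0.855). Its direction turned without ANT replicate 1, ANT replicate 3 or SAS replicate 3, and it was called higher without ANT replicates 4 and 5 (0.39, adjusted p 0.0286). The ratio of Ptpn22 to Csk per kb was 0.924, 0.566, 0.463 and 0.619 in SAS and 0.399, 0.394, 0.276 and 0.256 in ANT, with no overlap. Since Ptpn22 alone separated the clones and Csk did not, this ratio is no separate result. Pag1, which anchors Csk at the membrane, fell to 143 ± 21.6 CPM in SAS, against 286 ± 104 CPM in ANT, which is −1.0 on the log2 scale (SE 0.24, adjusted p 0.00812), and ANT replicates 4 and 5 (373 and 379 CPM) lay above replicates 1 and 3 (204 and 187 CPM).

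Among Janus kinase and STAT genes, 5 rose in SAS and 3 did not pass the test, where 37.4% of all genes tested were called. Jak2, a substrate of the Ptpn1 product, rose to 468 ± 37.1 CPM in SAS, against 189 ± 18.2 CPM in ANT (log2 fold change 1.31, SE 0.11, edgeR adjusted p 8.69e-06). Stat5a rose by 1.07 and Stat5b by 0.47 (adjusted p 7.6e-06 and 0.00702). Jak1 (−0.07, adjusted p 0.628) and Stat6 (0.12, adjusted p 0.525) did not pass the test. Jak3 rose by 0.46 (adjusted p 0.0321), a call that was lost without ANT replicates 1 or 3 (0.0767 and 0.0805), without SAS replicates 2, 3 or 6 (0.0745, 0.0712 and 0.0826), without ANT replicates 1 and 3 together (0.16) and with no low-count filter (0.0507).

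The MAP kinase genes Mapk3 and Mapk14 had log2 fold changes of 0.05 and −0.36 and were not called (edgeR adjusted p 0.799 and 0.233). Mapk14 was called without ANT replicates 1 and 3 (−0.76, adjusted p 0.000375), but was at 0.15 without ANT replicates 4 and 5 (0.258). Among 4 tested partners of the PEST group, Pstpip1, a cytoskeletal adaptor that brings PEST phosphatases to their substrates, fell to 127 ± 7.10 CPM in SAS, against 190 ± 12.4 CPM in ANT (−0.58, SE 0.09, adjusted p 0.000627). Ptk2b, the gene of Pyk2, and Was did not pass the test (0.49 and −0.39, adjusted p 0.0969 and 0.0896). Ptk2b was called without ANT replicate 5 (adjusted p 0.0165) and Was without ANT replicate 1 (0.0319). Without ANT replicates 1 and 3, Ptk2b was at 0.13 (adjusted p 0.483). Without ANT replicates 4 and 5, the value of Was came to −0.09 (adjusted p 0.552).

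Genes with the most similar pattern were sought among 8113 genes with a mean of at least 10 CPM, by Pearson's r of log2 CPM over the 8 libraries. These values mostly follow the gap between the clones for the 6 genes that separate them, and they are a description. The nearest gene was Mcm5 for Ptpn22 (r = 0.989), Xpot for Ptpn12 (0.995), Tmem192 for Ptpn18 (0.987), Map4k4 for Ptpn11 (0.993) and Twsg1 for Ptpn13 (0.960). For the overlapping genes it was Kdm1a for Ptpn1 (0.998), Mthfd2 for Ptpn2 (0.992), Spn for Ptpn4 (0.931) and Mrps25 for Ptpn6 (0.912).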

How the data were processed

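Raw gene counts of the 8 libraries were deposited by the authors as a single table. Per the submitters' processing notes, the build was mm10 and the tools were STAR, an aligner, and featureCounts, a read counter. Versions, annotation release, strand setting and the handling of multi-mapped reads are not given in the sources used here. GENCODE M21 supplied names and coordinates for 38872 of the 39056 IDs, compared without version suffix. The main test was edgeR 4.0.16 (R 4.3.3) on all 8 libraries: default low-count filter, TMM scaling, robust quasi-likelihood test of SAS minus ANT without covariates, Benjamini-Hochberg adjustment over the 12619 genes tested, and calls at an adjusted p under 0.05. Standard errors were derived from the F statistic and the log2 fold change. CPM are scaled with the TMM library size, per 1000000 counts, and levels per kb divide them by the merged exon length. The test was checked on simulated counts. Alternatives were other scalings and filters, DESeq2 1.42.0, limma-voom (limma 3.58.1), a replicate block and fits without single libraries or pairs of ANT libraries. The replicate block takes its contrast only from replicates 1 and 3, the numbers found in both clones. Partner genes came from lists in which up to 4 called genes per direction with the smallest p, the 2 most abundant uncalled genes and 6 fixed genes are named; some of the genes so chosen are not reported here. Members and lists were chosen with earlier results of these data known. Within clones no 2 libraries agreed within sampling noise (chi-square per degree of freedom 10.8 or more).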

Additional observations from a re-analysis of the deposited data

Results flagged for a closer look

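In 6 of 137 groups of 4 libraries, 1 library stood apart from the other 3 of its clone by more than Dixon's 95% critical value, where chance flags about 1 in 20. None of the 10 Ptpn genes was among them. SAS replicate 2 had 5.01 CPM of Ptpn5 (0.426 to 0.932 CPM in the other SAS libraries), 1.96 CPM of Ptprk (0.289 to 0.449) and 413 CPM of Jak2 (482 to 493). SAS replicate 3 had 1253 CPM of Jak1 (1148 to 1166 in the others). ANT replicate 1 had 448 CPM of Cd3e (530 to 544 in the other ANT libraries) and 77.1 CPM of Stat5a (84.6 to 86.1).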

How the results depend on the processing

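Over 18 alternatives, the log2 fold changes of Ptpn7, Ptpn11, Ptpn12, Ptpn13, Ptpn18 and Ptpn22 kept their sign and ran from 0.82 to 1.03, 0.65 to 0.81, 0.36 to 0.75, 1.18 to 1.49, −0.98 to −0.73 and 0.91 to 1.13. In fits that only leave out libraries, the sign of these genes follows from the lack of overlap, so only the sizes are informative there. Those of Ptpn1, Ptpn2, Ptpn4 and Ptpn6 ran from 0.18 to 0.79, −0.39 to −0.09, −0.07 to 0.23 and 0.07 to 0.32. Outside the members, the counts that moved by over 1.5 times were those of TCR-proximal genes and of other non-receptor phosphatases called. Without ANT replicates 4 and 5, 5 TCR-proximal genes were called, where 5913 of all genes were, against 4725 in the main fit. Of the other non-receptor phosphatases, 4 were called with library size only or the replicate block. Only 1 was called with at least 1 CPM in 4 libraries or without ANT replicates 1 and 3. Directions turned only for uncalled genes. With library size only, Lck was at 0.01, Cd3e at 0.07 and Jak1 at 0.03. Without ANT replicates 4 and 5, Ptpn4 was at −0.07, Cd3e at 0.03, Jak1 at 0.01, Mapk14 at 0.15, Mapk3 at −0.08 and Spn at −0.03. Without ANT replicates 1 and 3, Pecam1 was at 0.08, Stat6 at −0.07 and Csk at −0.24. Leaving out single libraries, Csk ranged from −0.06 to 0.17 and Mapk3 from −0.03 to 0.10. The cause was not tested. Replicate numbers 1 and 3 occur in both clones, but the libraries share only a number: the correlation of deviations from the clone means was 0.293 for number 1 and −0.121 for number 3. Numbers 2, 4, 5 and 6 occur in 1 clone only, so with the replicate block the contrast rests on replicates 1 and 3 of each clone. Its larger number of calls is therefore not read as more support. With the replicate block 5798 genes were called against 4725, and the Ptprv call was lost (0.41). In that fit Ptpn4 was at −0.03, Cd3e at 0.01, Jak1 at 0.06, Mapk14 at 0.13, Mapk3 at −0.04 and Spn at −0.03. At 483 counts in ANT, Ptpn13 is the member that depth limits most.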

Other observations

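SAS replicate 2 was the highest library for 12 of the 15 other phosphatase genes detected at a mean under 3 CPM, and for 7 of the 12 at 3 CPM or more. Among all genes it was the highest for 41.7% of the 6879 genes between 0.05 and 3 CPM and for 13.0% of the 9901 genes at 3 CPM or more. Among the 10 Ptpn genes it was the highest for 2. The 15 phosphatase genes have no lower limit of level, unlike the 6879 genes, and include Ptpn20, with 3 counts in SAS and none in ANT.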
